A study of Xenopus tropicalis with 12 samples.

Results

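TR-bound regions of the Xenopus tropicalis hind limb that were called in 3 of 4 conditions, and not in TRα (-/-) hind limb without T3, are described here. T3 receptors (TRs) bind DNA mostly as heterodimers with RXR at T3 response elements, recruit corepressors when no hormone is present and coactivators when T3 is bound. They are encoded by the TRα and TRβ genes. TRα is already high in the hind limb when the limb begins to form, whereas TRβ is low and is itself a direct T3 target gene, so that TR bound to chromatin in the knockout is taken to be TRβ.

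Chromatin came from the hind limb of stage 54 tadpoles, pooled from several tadpoles per sample, and an anti-TR antibody was used for chromatin immunoprecipitation and sequencing (ChIP-seq). The conditions were TRα (-/-) with 10 nM T3 for 18 h, TRα (-/-) without T3, wild type with the same T3 treatment and wild type without T3. The sample labels state that both genotypes had the same parents. The methods give crosses of TRα (+/-) frogs for the TRα (-/-) animals, which lack TRα in the whole animal, and a purchase for wild-type frogs, so a difference in clutch or background between the genotypes cannot be told apart from the genotype. Each condition has 3 libraries. They are technical replicates, so the variation between pools of tadpoles is not covered by any error or p-value below. In bulk hind limb, fewer cells with a bound site and less binding per cell cannot be told apart.

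Merging the peaks of the 12 lists wherever they had 1 bp or more in common gave 189159 regions, of which 22074 were bound in at least 1 condition, bound meaning a peak in at least 2 of its 3 libraries. The members were chosen by these same peak calls: bound in TRα (-/-) with T3, in wild type with T3 and in wild type without T3, and not bound in TRα (-/-) without T3. They number 2735 and are called 3-condition regions below. Of the 10085 regions bound in both wild-type conditions, they made up 27.1%. The choice fixes the difference between the TRα (-/-) conditions in the libraries it used, so these counts are a description with no test. The opposite choice, bound in wild type under both treatments and in TRα (-/-) without T3 but not with T3, gave 510 regions (5.06%) and is called the mirror class. A further 5098 regions were bound in all 4 conditions and 1742 in both wild-type conditions only.

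Depth differed between the libraries. It ranged from 940383 to 2851627 fragments in TRα (-/-) with T3, from 834029 to 3000220 in TRα (-/-) without T3, from 1055706 to 2307377 in wild type with T3 and from 3080104 to 6119057 in wild type without T3. Replicate 2 of TRα (-/-) without T3 was the shallowest and had 4645 peaks, against 19088 and 20827 in the other libraries of that condition and 25461 to 38371 in TRα (-/-) with T3. Peak number did not follow depth alone. Replicate 1 of TRα (-/-) with T3 had 38371 peaks from 940383 fragments. Its list reaches down to a summit of 2 fragments, against 3 in replicates 1 and 2 of TRα (-/-) without T3. Lack of a peak means only that none was detected with that number of fragments. The part of depth in the results was not tested beyond the values given beside them.

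Most 3-condition regions had a peak in untreated knockout. A peak in 1 of the 3 TRα (-/-) libraries without T3 was present in 1894 of them (69.3%), and 841 (30.7%) had none. The single peak lay in replicate 3, the deepest library of that condition, in 1397 regions, in replicate 1 in 446 and in replicate 2 in 51. In TRα (-/-) with T3, 1831, 2307 and 2499 of the 2735 regions had a peak in replicates 1, 2 and 3. In wild type with T3 the numbers were 1934, 2320 and 2508, and in wild type without T3 they were 2378, 2435 and 2583. Detection was thus highest in replicate 3, the deepest library, in every condition. All 3 libraries had a peak in 42.7% of the members in TRα (-/-) with T3, in 47.2% in wild type with T3 and in 70.4% in wild type without T3.

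**Figure D1:**
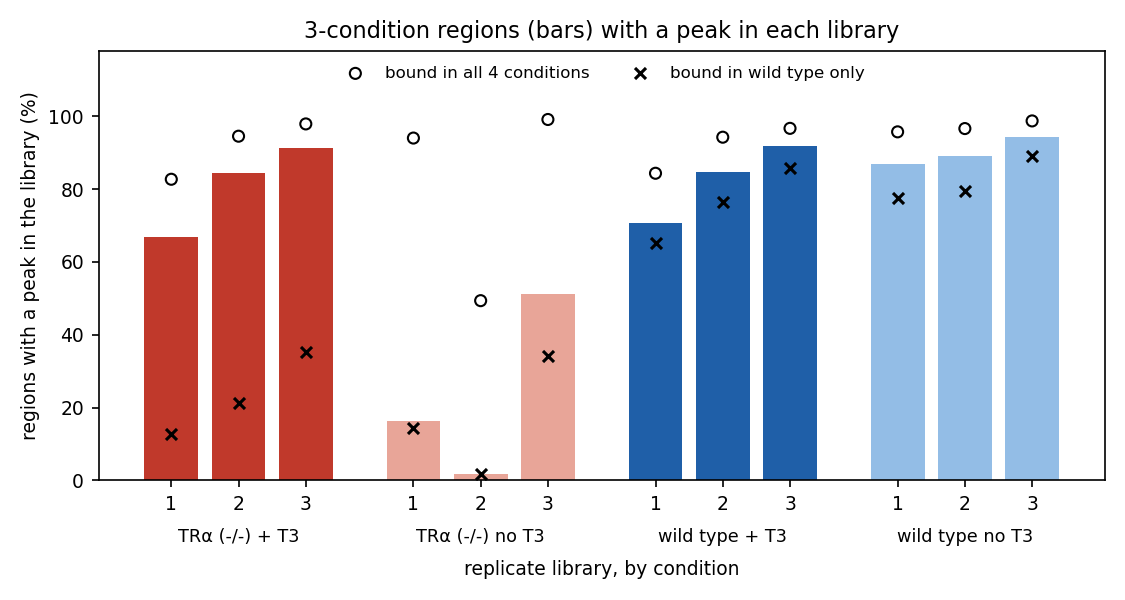
Share of regions with a peak (%) in each of the 12 libraries, by condition and replicate number, for the 2735 3-condition regions (bars), the 5098 regions bound in all 4 conditions (open circles) and the 1742 bound in wild type only (crosses). The 3-condition regions had a peak in 16.3%, 1.86% and 51.1% of cases in TRα (-/-) without T3, values that the choice of members holds low.

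Where a peak of untreated knockout fell in a member, it was smaller at the median than in regions bound in all 4 conditions. Its median summit pileup, the number of fragments over the highest point of the peak, was 5, 4 and 8 fragments in replicates 1, 2 and 3, where the lowest values in those lists were 3, 3 and 4 fragments. In TRα (-/-) with T3 the medians were 4, 7 and 10 fragments, against lowest values of 2, 3 and 4. Regions bound in all 4 conditions had larger peaks in every library, with medians of 7, 12 and 17 fragments in TRα (-/-) with T3 and 8, 6 and 14 in TRα (-/-) without T3. Over the 12 libraries, the median pileup of members with a peak was 0.565 to 0.667 of that of the regions bound in all 4 conditions. By q value, the untreated knockout peaks in members had median percentiles of 59.2, 40.8 and 64.0 in replicates 1, 2 and 3. Percentiles were counted from the weakest peak of each list, so replicates 1 and 3 lay above the middle. In regions bound in all 4 conditions they were 83.3, 68.8 and 84.9. The choice allows members a peak in only 1 library of that condition, and its part in these values was not tested.

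The number of members was read without the weak library. Without TRα (-/-) control replicate 2, and with a peak in both other libraries needed for a call, there were 3085 3-condition regions, which include all 2735, and 431 of the mirror class, a ratio of 7.16 against 5.36 with all libraries. This step can only add members and can only remove regions from the mirror class, so the ratio could not fall. With replicate 2 left out of every condition, so that both remaining libraries of each were needed for a call, 1094 3-condition regions stood against 726 of the mirror class, a ratio of 1.51. This setting changes the rule in all 4 conditions, so the lower ratio is not a value of the weak library alone. Of the 2735 regions, 924 were members under that rule. The libraries then compared held 940383 and 2851627 fragments in TRα (-/-) with T3, and 1597734 and 3000220 without T3. When no peak at all was allowed in the opposite condition, 232 regions were called in both libraries with T3 only and 65 in both libraries without T3 only. Other libraries also decided the number of members, which was 1595 or 1403 without replicate 2 or 3 of TRα (-/-) with T3, 5362 or 5622 without replicate 1 or 3 of TRα (-/-) without T3, and 1707 or 1519 without replicate 2 or 3 of wild type with T3. These directions follow from requiring 2 of the 2 libraries that are left.

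To read the difference between the TRα (-/-) conditions in libraries that did not choose the regions, the choice was repeated on 2 replicate numbers and read in the remaining one. Members needed a peak in both libraries of the 3 bound conditions and none in the 2 of TRα (-/-) without T3. Of 543 regions chosen on replicates 2 and 3, 58.4% had a peak in replicate 1 of TRα (-/-) with T3 (95% Wilson confidence interval 54.2 to 62.5%) and 43.1% in replicate 1 without T3 (39.0 to 47.3%). Of 232 regions chosen on replicates 1 and 3, 69.8% had a peak in replicate 2 with T3 (63.6 to 75.4%) and 8.19% in replicate 2 without T3 (5.31 to 12.4%). Of 597 regions chosen on replicates 1 and 2, 91.3% had a peak in replicate 3 with T3 (88.8 to 93.3%) and 72.7% in replicate 3 without T3 (69.0 to 76.1%). The intervals cover counting error only. Most regions chosen on replicates 1 and 2 for having no peak without T3 were therefore detected without T3 in the deepest untreated knockout library, and the set is not called regained regions here.

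The difference between TRα (-/-) with and without T3 was 15.3, 61.6 and 18.6 percentage points in replicates 1, 2 and 3. Detection was higher with T3 in 3 of 3 replicates, and the mean difference was 31.8 points (p = 0.3 by an exact permutation test, two-sided, in which 3 libraries against 3 allow no p below 0.1). Each replicate was read in its own set of regions, and the sets shared choosing libraries. The permuted values are therefore not independent, and the spread between sets enters this p-value. A sign-flip test, which uses the replicate number as a block, gave p = 0.25 for the same 31.8 points (exact, the smallest that 3 pairs allow). Without replicate 2, whose untreated library is the weak one, the mean difference was 16.9 points. Replicate 3 gives the comparison at the closest depth, with 2851627 fragments with T3 and 3000220 without. Both lists of replicate 3 reach down to 4 fragments at the summit. Those of replicate 1 reach down to 2 with T3 and 3 without, and the part of this was not tested.

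The same reads in other regions set the background. In all merged regions, detection was also higher with T3 in replicates 1, 2 and 3, by 10.2, 12.3 and 2.48 points. The merged regions were built from every list, the one read included, and 155276 of them had peaks of 1 library only. These values therefore follow the number of peaks in each list and are not a read in a left-out library. Among all regions with a peak in both libraries used for the choice in both wild-type conditions, 70.5, 83.7 and 91.3% had a peak in replicates 1, 2 and 3 of TRα (-/-) with T3, and 66.9, 35.8 and 85.0% without T3. Their differences were 3.64, 47.9 and 6.28 points, so the direction is not particular to the 3-condition regions. The 3-condition regions exceeded these by 11.6, 13.7 and 12.3 points, all in one direction (mean 12.6 points, exact sign-flip test, p = 0.25). Against regions with a peak in 1 of the 2 choosing libraries of each TRα (-/-) condition, a comparison added after seeing the data, the excess was 15.3, 8.16 and 10.2 points (mean 11.2 points, exact sign-flip test, p = 0.25). The comparison with the mirror class depended on how strictly both were chosen. With no peak allowed in the unbound TRα (-/-) condition, the mirror class held only 21, 65 and 16 regions, its differences were 28.6, 41.5 and 25.0 points, and the 3-condition regions differed from it by -13.3, 20.1 and -6.41 points (mean 0.135, exact sign-flip test, p = 1).

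A setting added after seeing the data allowed 1 peak in that condition. It gave a wider mirror set of 172, 726 and 210 regions and a wider 3-condition set of 3411, 1094 and 2222. A region with 1 such peak and another in the left-out library is bound in all 4 conditions. Both wider sets include such regions, which belong to neither class. In the wider 3-condition set, 2217, 189 and 1909 regions had a peak in the left-out library without T3. The wider mirror set had differences of -3.49, 51.1 and -0.48 points between TRα (-/-) with and without T3. The wider 3-condition set had 6.48, 62.8 and 9.14 points. It exceeded the wider mirror set by 9.97, 11.7 and 9.61 points, in one direction in 3 of 3 replicates (mean 10.4, exact sign-flip test, p = 0.25). The excess over all regions with a peak in both choosing libraries of both wild-type conditions was smaller on average in this setting. It was 2.84, 14.9 and 2.85 points (mean 6.85, exact sign-flip test, p = 0.25).

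**Figure D2:**
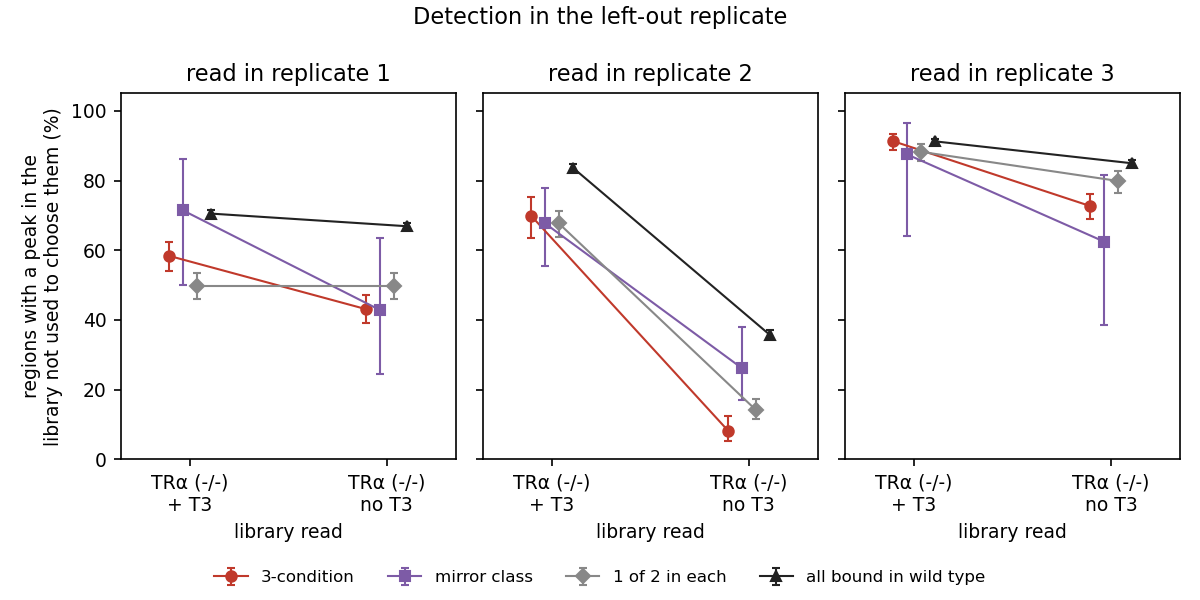
Share of regions (%) with a peak in the TRα (-/-) libraries of the replicate number that was not used to choose them, with T3 (left in each panel) and without T3 (right). Points are 3-condition regions, the mirror class, regions with a peak in 1 of 2 choosing libraries of each TRα (-/-) condition, and all regions with a peak in both choosing libraries of both wild-type conditions. Bars are 95% Wilson intervals. In replicate 3, 72.7% of the 3-condition regions had a peak without T3, against 91.3% with T3.

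Among regions bound in both wild-type conditions, few of the strongest were 3-condition regions, although the median percentile of members lay between 68.6 and 80.2 in the wild-type lists. Regions bound in both wild-type conditions were put in order by mean q value percentile over the wild-type libraries with a peak. Here 100 is the strongest peak of a list, and the order was divided into 10 equal classes. The share of 3-condition regions was 32.0% in the weakest class, 39.0% in the fourth, 18.4% in the eighth and 4.06% in the strongest. Their number fell to 41 in the strongest class, against 394 in the fourth. In replicates 1 and 3 of TRα (-/-) without T3, 95.0 and 97.0% of the strongest class had a peak. Members can have a peak in only 1 library of that condition, so their low share in this class largely follows from the choice. The mirror class had its highest share in the third, 9.23%, and 0.198% (2 regions) in the strongest. Regions bound in all 4 conditions increased over the same classes, with 14.4% in the weakest and 94.8% in the strongest. The mean percentile over the 9 libraries of the 3 bound conditions leaves out libraries without a peak, and 597 members had a peak in all 9. This mean had a median of 68.3 in the 3-condition regions and 84.9 in regions bound in all 4 conditions. Among the members, it was 64.2 for those with no peak in TRα (-/-) without T3 and 69.9 for those with 1.

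**Figure D3:**
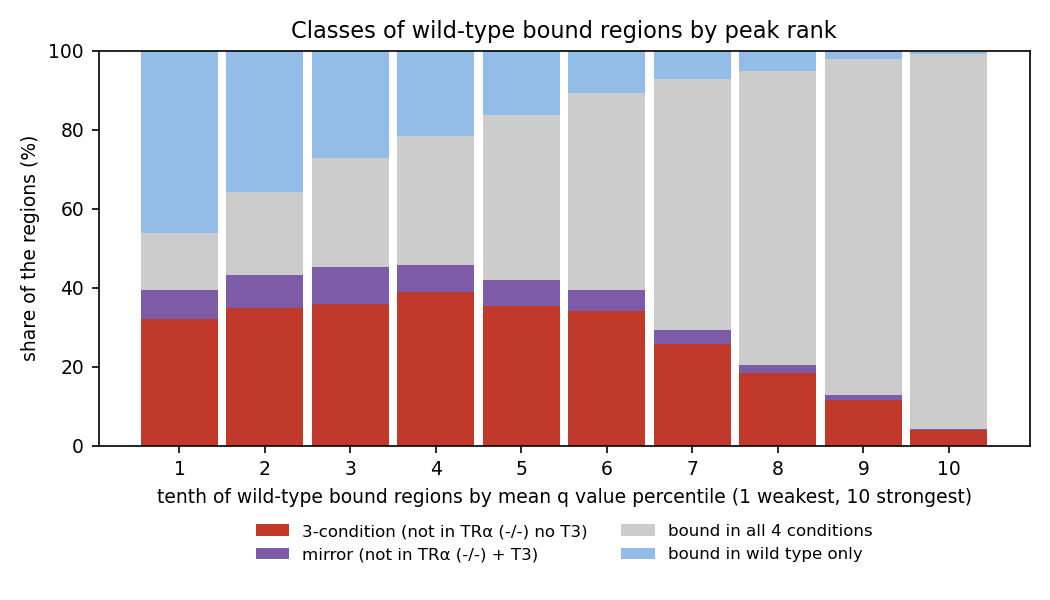
Composition (%) of the 10085 regions bound in both wild-type conditions, in 10 classes of equal size from the weakest (left) to the strongest (right). The order is by mean q value percentile over the wild-type lists with a peak. The 3-condition regions made up 32.0 to 39.0% of each of the 6 weakest classes and 4.06% of the strongest, a share that the choice of members holds low.

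The choice sets no direct limit on how strong a member is where it is bound, but it left few of the strongest wild-type regions. The rank of members was compared between the 3 bound conditions. The value is the median q value percentile of members minus that of regions bound in all 4 conditions in the same library. These classes differ only by the call in TRα (-/-) without T3, and the strongest wild-type regions were mostly bound in all 4 conditions. Values below 0 are therefore largely set by the choice. Because it used a TRα (-/-) condition, the choice may also act unequally on TRα (-/-) with T3 and on wild type, which was not tested. Only regions with a peak in that library entered the medians. The value was -12.7, -15.3 and -17.9 points in TRα (-/-) with T3, against -11.9, -13.0 and -11.5 in wild type with T3. The lists differed in length, with 38371, 28393 and 25461 peaks in TRα (-/-) and 42421, 32984 and 40035 in wild type. In both conditions the shortest list had the lowest value. The part of list length was not tested beyond the setting with equal lists below. The mean was -15.3 ± 2.60 in TRα (-/-) and -12.2 ± 0.766 in wild type (SD, n = 3 technical replicate libraries each). The ranges overlapped, and the difference of -3.14 points had p = 0.2 (exact two-sided permutation test) and p = 0.25 with the replicate number as a block (exact sign-flip test). The size depended on the setting and the libraries. With each list reduced to its 4645 strongest peaks it was -5.64 points, and without replicate 1 of TRα (-/-) with T3 it was -4.29 points (p = 0.1 for each, exact permutation test, the smallest p the design allows, so the libraries did not overlap). Without replicate 3 of TRα (-/-) with T3 it was -1.14 points (exact permutation test, p = 0.6). The sign was negative in every setting run, and none can pass 0.05 in this design.

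In wild type without T3, the value was -12.8, -16.8 and -18.3 points, with a mean of -16.0 ± 2.86 (SD, n = 3). Wild type with T3 was higher by 3.80 points (exact two-sided permutation test, p = 0.2). Its lists were also longer, as those without T3 held 29582, 23668 and 23982 peaks. With each list reduced to its 4645 strongest peaks, the difference was 0.576 points (exact two-sided permutation test, p = 0.8). The direction of the difference depended on the weak peaks of the lists. It was reversed when only peaks with q below 0.01 were kept (-1.22 points), or only those with 4 or more fragments at the summit (-2.85 points). With 3 libraries against 3, no p below 0.1 was possible. These values therefore cannot show whether T3 changes the relative strength of these regions in wild type.

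**Figure D4:**
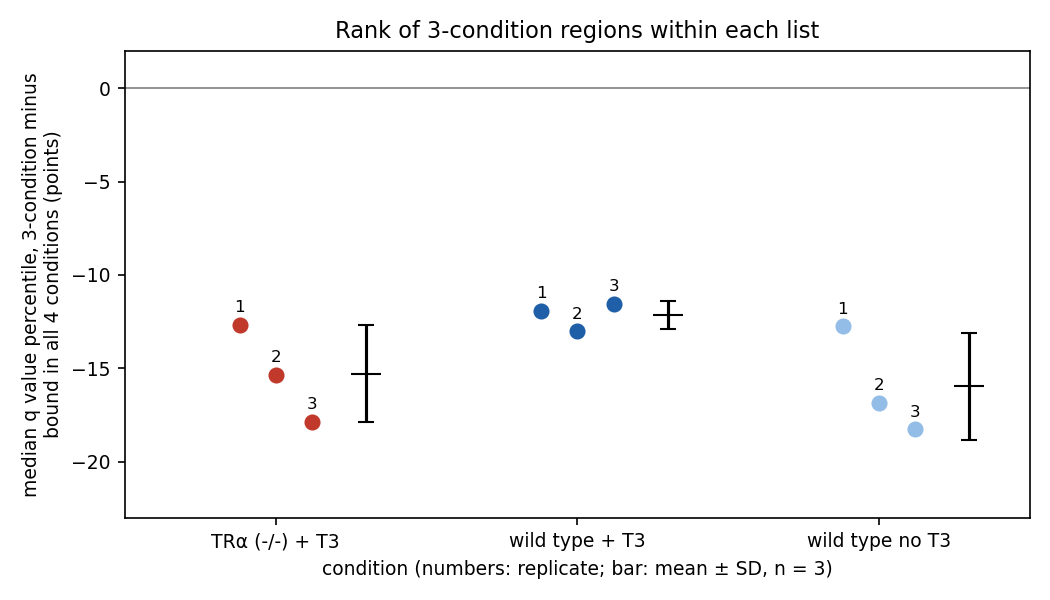
Median q value percentile of the 3-condition regions minus that of the regions bound in all 4 conditions, in percentile points, for each library (points with replicate numbers) of the 3 conditions in which they were bound, with mean ± SD (n = 3). All 9 values lie between -18.3 and -11.5 points.

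Some members were complete in every bound condition. Of the 2735 regions, 597 had a peak in all 9 libraries of the 3 bound conditions, and 100 of these (3.66% of the members) had none in TRα (-/-) without T3. In the mirror class, 1 region had a peak in all 9 libraries and none in TRα (-/-) with T3. Since the shallow replicate 2 without T3 stands in the 9 libraries of the mirror class, these 2 counts are not on equal terms. The mean percentile of the 100 regions ranged from 44.5 to 98.5, with a median of 76.4, below the 84.9 of the regions bound in all 4 conditions. The 10 with the highest mean percentile are given here by their summit pileup in replicates 1, 2 and 3 of each bound condition. None has a peak in TRα (-/-) without T3, as their choice required. Positions are on the Xenbase v9.1 genome. The genes near them were not analysed here.

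Ranked first was a region of chromosome 9 from 67958295 to 67958639 (345 bp). It had 19, 46 and 47 fragments in TRα (-/-) with T3, 25, 39 and 50 in wild type with T3 and 54, 65 and 73 in wild type without T3. Per 1000000 fragments of each library, this was 20.2, 25.1 and 16.5 in TRα (-/-) with T3, 23.7, 21.4 and 21.7 in wild type with T3 and 17.5, 15.5 and 11.9 in wild type without T3. On this scale the TRα (-/-) values with T3 overlapped with those of both wild-type conditions. The untreated knockout list that reaches down to 4 fragments, from 3000220 fragments in all, has no peak there.

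This region had neighbors of the same kind, which were looked at after its values were seen. Within 50 kb on either side, 3 other regions were bound in any condition, and none of them in TRα (-/-) without T3. A member from 67963385 to 67963790 had 39 and 48 fragments in replicates 2 and 3 of TRα (-/-) with T3, 28 and 43 in replicates 1 and 3 of wild type with T3, and 53, 63 and 64 in wild type without T3. Another member, from 67964550 to 67966796, had 9 and 14 fragments in replicates 2 and 3 of TRα (-/-) with T3, 10, 20 and 16 in wild type with T3 and 24, 24 and 29 in wild type without T3. The fourth region, from 67959889 to 67960932, is no member, with 23 and 26 fragments in replicates 1 and 2 of wild type without T3 and no peak in the other 10 libraries. The nearest region bound in untreated knockout was 82021 bp from the first. A difference in sequence or copy number between the pools of tadpoles would also give a stretch without peaks in 1 condition, and it was not tested.

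The second region, on chromosome 10 from 19606708 to 19607137, had 17, 16 and 35 fragments in TRα (-/-) with T3, 22, 21 and 30 in wild type with T3 and 26, 33 and 39 in wild type without T3. A region bound in untreated knockout lay 1641 bp away. The third, also on chromosome 10, from 85744 to 86022, had 9, 18 and 18 fragments in TRα (-/-) with T3, 8, 16 and 14 in wild type with T3 and 16, 19 and 42 in wild type without T3. It lies close to the start of the chromosome, with 11 other bound regions within 50 kb, 3 of them bound in untreated knockout.

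The fourth region, on chromosome 6 from 129004575 to 129004881, had 6, 12 and 19 fragments in TRα (-/-) with T3, 11, 9 and 12 in wild type with T3 and 26, 31 and 32 in wild type without T3. The fifth, on chromosome 5 from 4951744 to 4952589, had 10, 21 and 26 fragments in TRα (-/-) with T3, 12, 14 and 17 in wild type with T3 and 31, 28 and 20 in wild type without T3. In both, pileup was highest in wild type without T3 in most libraries, where depth was also highest, so pileups are not levels of binding to compare between conditions. The sixth, on chromosome 9 from 73216478 to 73217150, had 8, 13 and 14 fragments in TRα (-/-) with T3, 6, 13 and 10 in wild type with T3 and 17, 16 and 19 in wild type without T3.

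The seventh region, on chromosome 2 from 162978189 to 162979006, had 7, 7 and 15 fragments in TRα (-/-) with T3, 6, 15 and 14 in wild type with T3 and 22, 18 and 39 in wild type without T3. Of the 5 other regions bound within 50 kb of it, none was bound in untreated knockout, as around the first region, and the nearest such region lay 116399 bp away. The eighth, on chromosome 8 from 115488541 to 115488938, had 7, 10 and 21 fragments in TRα (-/-) with T3, 4, 24 and 14 in wild type with T3 and 12, 13 and 25 in wild type without T3. The ninth, on chromosome 6 from 5374225 to 5374554, spanned 6 to 17 fragments over the 9 libraries, and the tenth, on chromosome 7 from 14613293 to 14613636, spanned 5 to 40. The mean percentile of the 10 regions was between 90.9 and 98.5.

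**Figure D5:**
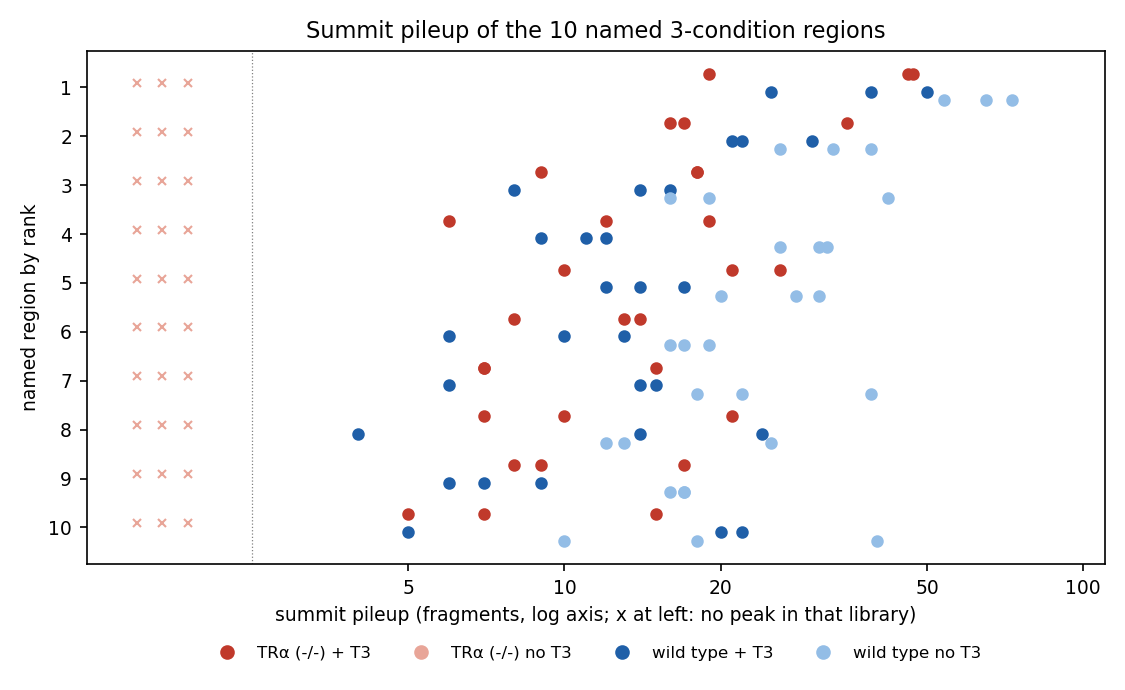
Summit pileup (fragments, log axis) of the 10 named 3-condition regions in rank order, 1 point per library, with a cross at the left for a library without a peak. The first region spans 19 to 73 fragments over its 9 libraries and the ninth 6 to 17, and none of the 10 has a peak in TRα (-/-) without T3.

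At the limit of the rule stand regions that differ by 1 call. The highest-ranked member with 1 peak in untreated knockout, on chromosome 6 from 84079730 to 84080133, had 24, 50 and 46 fragments in TRα (-/-) with T3 and 30 fragments in replicate 3 without T3. The next, on chromosome 5 from 9783101 to 9783531, had 15 and 31 fragments in replicates 1 and 2 with T3 and 15 in replicate 3 without T3. The third, on chromosome 1 from 177520920 to 177521261, had 12, 17 and 31 fragments with T3 and 15 in replicate 3 without T3. Each of these was missed in replicates 1 and 2 without T3 and called in replicate 3. Outside the rule, 2932 regions were bound in the 3 conditions and had 2 peaks in untreated knockout. The highest-ranked of them, on chromosome 5 from 90893583 to 90894228, had 100, 166 and 175 fragments with T3 and 31 and 68 fragments in replicates 1 and 3 without T3. The next, on chromosome 9 from 63436555 to 63437395, had 36 and 76 fragments in replicates 1 and 2 with T3 and 22 and 29 in replicates 1 and 3 without T3. The third, on chromosome 3 from 136980710 to 136981116, had 29, 35 and 85 fragments with T3 and 22 and 38 in replicates 1 and 3 without T3. All 3 lacked a peak only in replicate 2 among the untreated knockout libraries. The mean percentile of these 2932 regions had a median of 79.3, between the members with 1 peak (69.9) and all regions bound in 4 conditions (84.9).

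Position and width were not used to choose the regions. In every one of the 2735, a peak of TRα (-/-) with T3 overlapped a wild-type peak directly. For the 841 members with no peak in TRα (-/-) without T3, the merging makes this certain. In the others, only peaks of 1 TRα (-/-) library without T3 could have stood between them. The full count is therefore largely set by the rule and is no result about shared sites. Distances between summits within a region are also limited by the merging, and they are given as description only. The median summit of TRα (-/-) with T3 was within 100 bp of that of wild type with T3 in 52.2% of members, with a median distance of 93 bp, and in 57.9% of the regions bound in all 4 conditions, with 71 bp. Between wild type with and without T3, the median distance was 85.5 bp in the 3-condition regions. The regions were 901 bp wide at the median (quartiles 670 and 1224 bp), against 883.5 bp in the mirror class, 1032.5 bp in regions bound in all 4 conditions and 760 bp in regions bound in wild type only. A region spans all the peaks merged in it, so a class that requires peaks in more libraries can be wider for that reason alone. Width also followed the order of peak strength in these classes. It was not tested, since regions are not replicates.

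Few members lay beside a region bound in untreated knockout. A region bound in TRα (-/-) without T3 lay within 1000 bp of 111 of them (4.06%, 95% Wilson confidence interval 3.38 to 4.86%). The share was 5.88% (4.15 to 8.27%) in the mirror class, 5.57% (4.97 to 6.23%) in regions bound in all 4 conditions and 4.82% (3.91 to 5.93%) in regions bound in wild type only. Within 10000 bp the share was 30.3% (28.6 to 32.1%) of the 3-condition regions, against 34.7% (30.7 to 38.9%) of the mirror class, 35.5% (34.2 to 36.9%) of the regions bound in all 4 conditions and 31.7% (29.5 to 33.9%) of those bound in wild type only. At both distances, the interval of the 3-condition regions lay below that of the regions bound in all 4 conditions and overlapped those of the other classes. These intervals cover counting error only and regions are not replicates, so this is no test of a difference between classes. The median distance to such a region was 22413 bp in the 3-condition regions and 16689 bp in the regions bound in all 4 conditions.

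By chromosome, members were between 25.4% of the regions bound in both wild-type conditions, on chromosome 7, and 28.3%, on chromosome 8. The interval of each of the 10 chromosomes includes the 27.1% of the whole set. Their number per Mb ranged from 1.66 on chromosome 1 to 4.68 on chromosome 10, the shortest, and the other classes were spread in a similar way, with chromosome 10 holding 6.84% of the 3-condition regions, 7.45% of the mirror class and 7.08% of the regions bound in all 4 conditions. Within 1 Mb of the outermost peak of a chromosome lay 9.03% (8.01 to 10.2%) of the 3-condition regions, against 10.9% (10.1 to 11.8%) of those bound in all 4 conditions and 7.35% (6.21 to 8.67%) of those bound in wild type only.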

How the data were processed

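TR ChIP-seq of stage 54 hind limb was deposited as 12 peak lists. According to the methods and the file headers, Bowtie2 (2.3.4.1) was used by the authors for alignment to Xenbase v9.1, duplicates were taken out, and MACS2 (2.1.1.20160309) called peaks in each library without a control at a q value cutoff of 0.05. The deposited values are summit pileup (a signal in fragments, not scaled between libraries), −log10 p-value and q-value, fold enrichment (a ratio over local background) and positions. Fold enrichment enters no result. Depth is the number of fragments after filtering in the headers.

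Scripts in Python 3.11.15 (numpy 2.4.6, pandas 2.3.3, scipy 1.17.1), tested on simulated lists, merged overlapping peaks of all lists before any choice. Percentiles were taken within each list, and their means over libraries leave out libraries without a peak. Tests were exact permutation and sign-flip tests over libraries, which allow no p below 0.1 and 0.25. Deviations in peak number of same-numbered libraries had correlations of 0.206 to 0.965 over 6 pairs of conditions. Each correlation rests on 3 replicates, too few to establish a pairing. The replicate number served as a block, although the methods name no batch shared by same-numbered libraries. Named regions are the 10 of highest mean q value percentile among members with peaks in all 9 libraries and none in TRα (-/-) without T3. Members, lists and tests were chosen with earlier results of these data known. No genome or annotation of the v9.1 build was used, so genes, sequences and motifs were not analysed here.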

Additional observations from a re-analysis of the deposited data

How the results depend on the processing

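The number of 3-condition regions, 2735, moved by over 1.5 times in several settings. It was 1796 when q had to be below 0.001, 539 when each list was reduced to its 4645 strongest peaks, 1667 with peaks covering 50% of the region and 841 with no peak allowed in TRα (-/-) without T3. It was 892 without TRα (-/-) control replicate 2 and no peak in the other libraries of that condition, and 1094 with replicate 2 left out of every condition. With each library left out in turn it ranged from 1403 to 5622. The ratio to the mirror class was 3.15 with equal peak numbers and between 4.97 and 5.43 with stricter q values or a pileup of at least 4 fragments. The difference in left-out libraries kept its direction in every setting run, from 16.9 to 40.1 points. It was 26.1 points with 1 peak allowed in the untreated knockout libraries used for the choice (added after seeing the data). Beyond regions with a peak in 1 of 2 choosing libraries of each TRα (-/-) condition, it was 11.2 points (also added). The direction is not particular to these regions. The mean was 19.3 points in all regions chosen on wild type alone and 31.7 in the mirror class with no peak allowed. The rank difference between TRα (-/-) and wild type with T3 stayed negative in every setting run. That between wild type with and without T3 was reversed with q below 0.01 (-1.22) or 0.001 (-1.65), at a pileup of at least 4 fragments (-2.85) and with regions without a peak set to percentile 0 (-0.50). The replicate block changed no call, since no test of this design can pass 0.05. In untreated knockout, lack of a peak means only that none was detected, and the part of depth in this was not tested.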

Other observations

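The 3-condition regions were unevenly placed along chromosomes, as were the regions bound in both wild-type conditions. Of the 1-Mb windows with a merged region of any kind, 486 had no member, 307 had 1 and 6 had 20 or more. The window with most was the first Mb of chromosome 3, with 22 members of 76 regions bound in both wild-type conditions, 3 of the mirror class, 39 bound in all 4 conditions and 12 bound in wild type only. The first Mb of chromosome 10 had 21 members of 64 such regions, 4 of the mirror class and 33 bound in all 4 conditions. An exception in composition, chosen after its values were seen, was the window from 9 to 10 Mb of chromosome 2, where 17 of 30 regions bound in both wild-type conditions were members, against 10 bound in all 4 conditions and 1 of the mirror class. In the window from 128 to 129 Mb of chromosome 3, 18 of 40 were members and 15 were bound in all 4 conditions. No test was made of these windows.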
